A study of Mus musculus with 4 samples.

Results

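The Ifi200 genes are a cluster of mouse genes on chromosome 1 that encode proteins with a pyrin domain, a DNA-binding HIN domain, or both. Their expression was followed in leukemia stem cells that lacked Hif1a and in WT leukemia stem cells of a mouse model of chronic myeloid leukemia. The family was taken as 7 genes by symbol (Ifi205, Ifi207, Ifi209, Ifi203, Ifi204, Mndal and Aim2), and each was read from the probe set that carries its symbol alone. Of these 7, 5 had such a probe set, among 19938 genes measured in all. The only probe set of Ifi204 is annotated to Ifi211 as well, and no probe set named Mndal, so these members have no value of their own here. The members were chosen on their log2 differences between Hif1a-/- and WT arrays in this comparison, so those differences are given as a description, without a test.

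The study holds 2 samples of Hif1a-/- donor origin and 2 of WT donor origin, each on 1 Affymetrix whole-transcript array. Donor marrow of Hif1a-/- or of C57BL/6 (B6) mice, from donors given 5-fluorouracil, was infected with a retrovirus that carries BCR-ABL, the fusion kinase of chronic myeloid leukemia, and GFP. Both kinds of marrow went into B6 recipients, and GFP+Lin-c-Kit+Sca-1+ cells were sorted from recipient marrow 14 days later. The strain is given as C57BL/6 (B6), the age as 8 weeks and all samples carry BCR-ABL. The labels do not say which part of Hif1a is lost, in which cells it was deleted, or whether animals were pooled, and they call the samples biological replicates without naming animals. The p-values below therefore measure only the spread between these 4 samples.

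Ifi200 proteins are interferon-inducible, and many are expressed in blood cells of the myeloid line. The HIN domain binds double-stranded DNA and the pyrin domain joins other pyrin-domain proteins. Aim2 binds DNA in the cytosol and assembles an inflammasome with the adaptor ASC, the product of Pycard. Ifi204, a relative of human IFI16, and Ifi203 have been tied to DNA sensing through STING, while Ifi205 has been reported to act on Pycard expression in mouse macrophages. Ifi202b, which lacks the pyrin domain, restrains Aim2.

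Promoter sequences were available for 12 Ifi200 genes, members and others, and are shown because most of them share an interferon-type element near the start site. They come from RefSeq on GRCm38.p6 and run from 250 bases before to 50 bases after the start of the gene, 5′ to 3′. The first 3 below belong to the members whose Hif1a-/- and WT arrays did not overlap, and Aim2 is shown beside them. Capitals mark matches on either strand to GAAANNGAAA, a form of the interferon-stimulated response element (ISRE), and to the shorter, overlapping pattern AAATNGAAA, which was chosen after the family's promoters had been read.
Ifi205: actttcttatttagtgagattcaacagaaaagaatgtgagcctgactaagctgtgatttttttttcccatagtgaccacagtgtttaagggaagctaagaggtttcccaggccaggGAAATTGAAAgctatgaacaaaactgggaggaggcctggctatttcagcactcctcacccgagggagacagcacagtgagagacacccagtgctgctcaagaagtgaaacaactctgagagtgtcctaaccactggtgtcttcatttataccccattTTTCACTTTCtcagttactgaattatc
Ifi209: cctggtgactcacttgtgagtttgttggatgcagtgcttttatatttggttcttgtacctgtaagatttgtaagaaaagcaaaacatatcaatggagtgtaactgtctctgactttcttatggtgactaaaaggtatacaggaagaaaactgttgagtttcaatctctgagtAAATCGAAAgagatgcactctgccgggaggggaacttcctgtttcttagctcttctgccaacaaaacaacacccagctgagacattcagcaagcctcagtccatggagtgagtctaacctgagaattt
Ifi207: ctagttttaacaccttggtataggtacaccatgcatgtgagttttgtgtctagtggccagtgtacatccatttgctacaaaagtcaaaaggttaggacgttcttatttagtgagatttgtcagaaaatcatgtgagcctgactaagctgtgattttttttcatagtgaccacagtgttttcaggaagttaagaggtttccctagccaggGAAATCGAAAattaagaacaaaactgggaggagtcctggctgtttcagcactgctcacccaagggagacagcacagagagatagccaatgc
Aim2: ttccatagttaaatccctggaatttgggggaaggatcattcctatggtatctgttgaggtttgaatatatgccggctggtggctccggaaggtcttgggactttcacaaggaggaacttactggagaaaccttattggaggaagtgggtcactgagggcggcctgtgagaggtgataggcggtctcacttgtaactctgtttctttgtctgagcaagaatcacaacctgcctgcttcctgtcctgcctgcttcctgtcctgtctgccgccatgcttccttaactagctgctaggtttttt
These promoters lie at chr1:174031706-174032005 on the minus strand for Ifi205, chr1:173630609-173630908 on the plus strand for Ifi209, chr1:173741760-173742059 on the minus strand for Ifi207 and chr1:173420354-173420653 on the plus strand for Aim2.

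GAAANNGAAA was found in 9 of the 12 Ifi200 genes with a promoter, against 3.45% of 32544 different promoter sequences in the table. AAATNGAAA was found in 10 of the 12, against 1.87% of all promoters. This shorter pattern was chosen after these promoters had been read, so its count in the family is no test. Ifi209 holds AAATNGAAA and not the longer pattern, and Aim2 and Ifi202b hold neither. GAAATCGAAA was picked as the most frequent spelling of GAAANNGAAA in the family's own promoters, so its count there is no test. It stood in 7 Ifi200 genes (Ifi203, Ifi206, Ifi207, Ifi208, Ifi213, Ifi214 and Mndal) and in 9 promoters outside the family. Among the latter was that of Ddx58, the RNA sensor RIG-I. The match of AAATNGAAA began between 34 and 133 bases before the start site. Ifi203 and Mndal have a pair of RefSeq starts each, of which 1 carries the shorter pattern. The element and its surroundings are shown for the other Ifi200 genes as 30 bases with AAATNGAAA in capitals.
Ifi203: taagagctggggAAATCGAAAgctatgaac
Mndal: taagagctggggAAATCGAAAgctatgaac
Ifi206: ctgtctctgaggAAATCGAAAgctatgaac
Ifi208: ccgtctctgaggAAATCGAAAgctatgaac
Ifi213: ccgtctctgaggAAATCGAAAgctatgaac
Ifi214: cagtctctgaggAAATCGAAAgcgatgcac
Ifi211: ccaaagccagggAAATTGAAAgctatgaac
These stretches lie at chr1:173942509-173942538 on the minus strand for Ifi203, chr1:173880205-173880234 on the minus strand for Mndal, chr1:173491340-173491369 on the minus strand for Ifi206, chr1:173673596-173673625 on the plus strand for Ifi208, chr1:173599327-173599356 on the minus strand for Ifi213, chr1:173536018-173536047 on the minus strand for Ifi214 and chr1:173913065-173913094 on the minus strand for Ifi211. Over the 45 pairs of these windows and those of Ifi205, Ifi207 and Ifi209, 17 to 30 of the 30 bases were the same, with a median of 22. Each window was cut around AAATNGAAA, so the fixed letters of that pattern match in every pair by construction. Windows of genes outside the family were not compared. The windows of Ifi203 and Mndal were the same in 30 of 30 bases, as were those of Ifi208 and Ifi213.

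**Figure D1:**
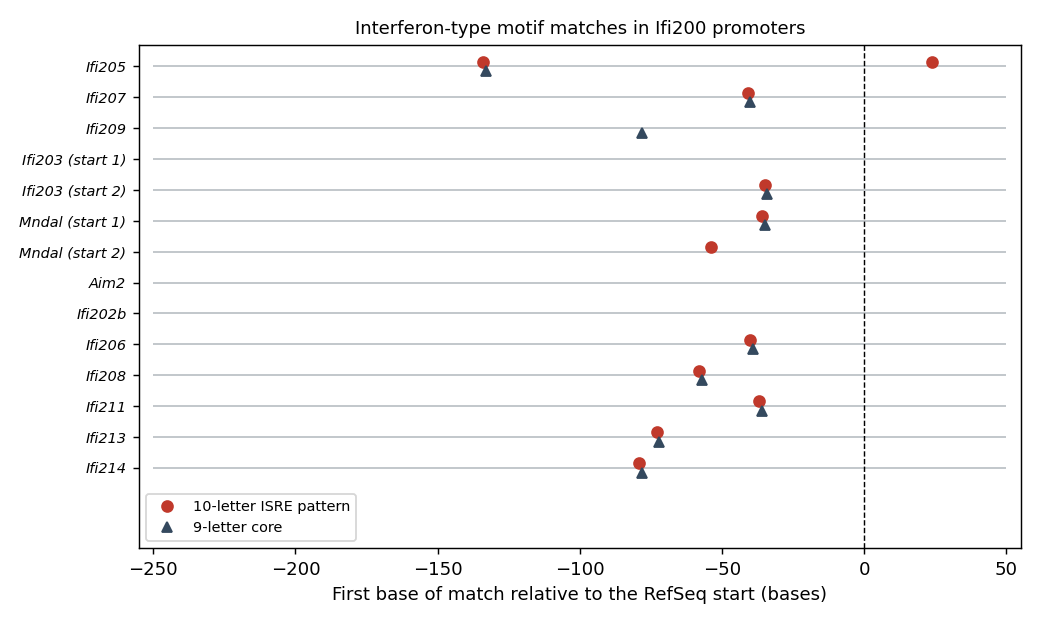
Matches in the promoters of 12 Ifi200 genes (rows, with both starts of Ifi203 and Mndal), plotted by the first base of the match relative to the RefSeq start in bases. Circles are GAAANNGAAA and triangles AAATNGAAA on either strand. Most matches lie upstream near the start, at 34 to 133 bases for AAATNGAAA, and Aim2 and Ifi202b have none.

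ACGTG or GCGTG, the core letters of the hypoxia response element bound by HIF, was in 0 of the 12 Ifi200 promoters and in 44% of all promoters, on either strand. TTCNNNGAA, a STAT-type pattern, was in 1 of the 12 (Ifi202b) and in 8.33% of all, and GAGGAA, an Ets-type pattern that overlaps GAAANNGAAA in several of the genes, was in 5 of the 12 and in 28.1% of all. A match says only that these letters are present in the window, and an absence says nothing of sites outside it. The promoters compared were not matched for base composition.

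The arrays were alike in their distribution, with medians over the 19938 genes between 8.53 and 8.57 on the RMA log2 scale. Hif1a itself read 11.25 and 11.39 on the Hif1a-/- arrays and 11.34 and 11.50 on the WT arrays, a difference of -0.09 with groups that overlapped. The exons deleted are not named and a whole-transcript probe set may lie mostly outside them, so Hif1a does not check the genotype labels. The WT arrays stood apart from each other: the mean of 15 neutrophil genes was 13.05 on WT replicate 1 and 11.90 on WT replicate 2, beside 12.50 and 12.44 on the Hif1a-/- arrays. Limma, fitted across all genes, called 0 genes (0% lower and 0% higher) at an adjusted p of 0.05. The smallest adjusted p was 0.239, and 0.978% of genes were lower and 0.697% higher at an unadjusted p under 0.05. With the WT arrays left out in turn, limma called 349 genes without WT replicate 1 and 1442 without WT replicate 2.

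Ifi205 showed the largest difference among the measured members and read about 1 log2 unit lower without Hif1a. It read 9.76 and 9.80 on the Hif1a-/- arrays and 10.83 and 10.84 on the WT arrays. The groups did not overlap, with 1.03 between their nearest arrays, and replicates within a genotype lay within 0.04 of each other. The means were 9.78 ± 0.03 in Hif1a-/- cells and 10.84 ± 0.01 in WT cells (SD, n = 2 each), which makes Ifi205 2.08-fold lower in Hif1a-/- cells. Its difference of -1.06 was the 7th lowest of the 19938 genes, and with any 1 array left out it stayed between -1.08 and -1.04.

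Ifi209, whose human relative is IFIX, read 7.43 and 7.53 on the Hif1a-/- arrays and 8.28 and 8.35 on the WT arrays. The groups were apart here too, with 0.75 between their nearest arrays. The means were 7.48 ± 0.07 in Hif1a-/- cells and 8.31 ± 0.05 in WT cells (SD, n = 2 each), a difference of -0.84, or 1.78-fold lower in Hif1a-/- cells. It ranked 25th lowest of all genes, and leaving out 1 array gave -0.88 to -0.79.

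Ifi207, a nuclear member reported to support cytokine gene transcription in mouse macrophages, read 8.90 and 9.45 on the Hif1a-/- arrays and 9.61 and 10.11 on the WT arrays. The groups did not overlap, but only 0.16 separated the nearest arrays, and replicates differed by about as much as the genotypes: 0.55 between the Hif1a-/- arrays and 0.50 between the WT arrays. The means were 9.17 ± 0.39 in Hif1a-/- cells and 9.86 ± 0.36 in WT cells (SD, n = 2 each), a 1.61-fold lower value in Hif1a-/- cells. The difference of -0.69 became -0.41 without Hif1a-/- replicate 1 and -0.43 without WT replicate 2.

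Ifi203 read 9.45 and 9.63 on the Hif1a-/- arrays and 9.49 and 10.72 on the WT arrays. Only WT replicate 2 was high, and WT replicate 1 lay between the Hif1a-/- arrays. The means were 9.54 ± 0.13 in Hif1a-/- cells and 10.11 ± 0.87 in WT cells (SD, n = 2 each), a difference of -0.57 that was smaller than the 1.24 between the WT arrays. It was -1.19 without WT replicate 1 and turned to 0.049 without WT replicate 2, so its direction rests on 1 array.

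Aim2, the DNA-binding inflammasome receptor, read 9.41 and 9.50 on the Hif1a-/- arrays and 9.46 and 9.78 on the WT arrays. The groups overlapped, and again WT replicate 2 was the highest array. The means were 9.45 ± 0.06 in Hif1a-/- cells and 9.62 ± 0.23 in WT cells (SD, n = 2 each). The difference of -0.17 was smaller than the 0.32 between the WT arrays and was -0.0084 without WT replicate 2.

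**Figure D2:**
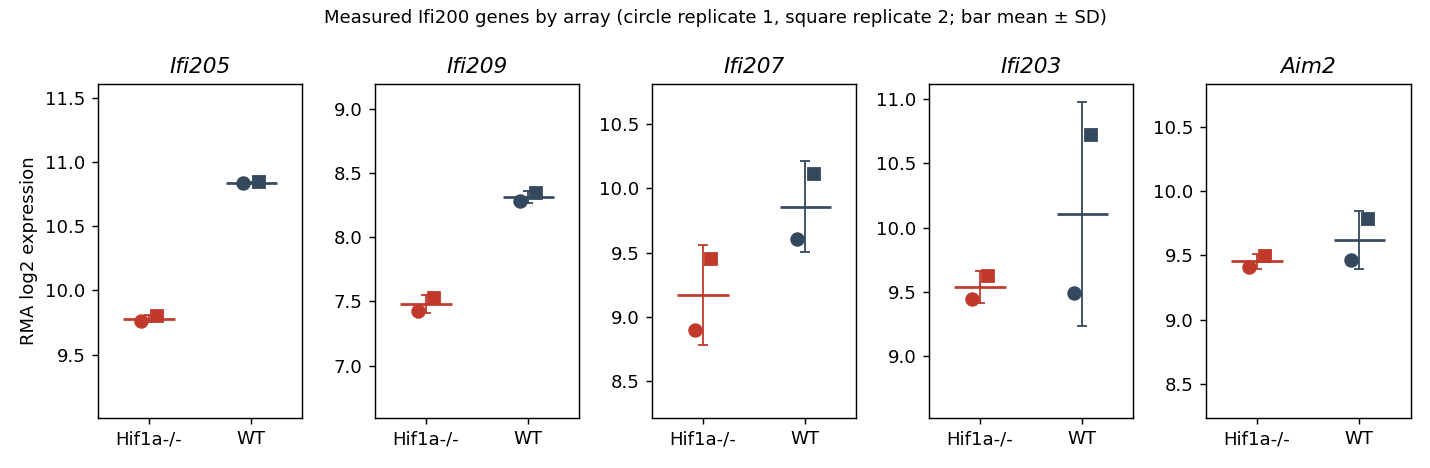
RMA log2 expression of the 5 measured Ifi200 members in Hif1a-/- (left, red) and WT (right, grey) samples, with circles for replicate 1, squares for replicate 2, and bars for the mean ± SD of 2 arrays. All panels span the same number of log2 units. Ifi205 and Ifi209 are far apart between genotypes, Ifi207 is narrowly apart, and Ifi203 and Aim2 overlap.

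The probe set annotated to both Ifi204 and Ifi211 read 7.94 and 8.34 on the Hif1a-/- arrays and 9.02 and 8.74 on the WT arrays. Its groups did not overlap and its difference was -0.74, but the signal cannot be assigned to either gene. The family's members resemble each other in sequence. The windows above are of promoters, and transcript sequences were not compared. How far each probe set also reads related transcripts was not tested.

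Across the family, all 5 measured members were lower in mean in Hif1a-/- cells, and 3 of the 5 had groups that did not overlap. Of all genes, 38.6% had a lower mean, 9.05% had groups that were apart downward and 15.7% had groups that were apart upward. Since this contrast was known when the members were chosen, nothing is read from that count. The median difference was -0.69 over the 5 members and 0.03 over all genes. The members split by how they varied within WT: Ifi205 and Ifi209 differed by 0.01 and 0.07 between the WT arrays, and Ifi207, Ifi203 and Aim2 by 0.50, 1.24 and 0.32, each higher on replicate 2.

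The cluster holds 5 further Ifi200 genes with a probe set of their own. Each had a lower mean in Hif1a-/- cells, with differences from -0.28 to -0.02 and a median of -0.13. These genes are dim: 0 of the 5 lay above the median of all genes (8.55) in either genotype. A filter at the 25th percentile of mean expression kept 0 of them. Ifi213 read 7.13 and 6.74 on the Hif1a-/- arrays and 7.23 and 7.20 on the WT arrays, a difference of -0.28. Ifi206 read 6.74 and 6.86 on the Hif1a-/- arrays and 6.92 and 6.93 on the WT arrays. Both had groups that did not overlap. With Ifi202b, 3 of the 5 were apart downward and 0 upward, beside 9.05% and 15.7% of all genes. Ifi208 differed by -0.17 and Ifi214 by -0.12, with groups that overlapped, and they turned to 0.044 without WT replicate 1 and to 0.015 without Hif1a-/- replicate 2. Ifi202b, known for its dependence on mouse strain, read 5.28 and 5.30 on the Hif1a-/- arrays and 5.32 and 5.30 on the WT arrays, so its level was flat across all 4, although the groups were formally apart at a difference of -0.021. By limma, 0 of these 5 passed at an adjusted p of 0.05 and 0 had an unadjusted p under 0.05.

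The genes that flank the cluster differed little between genotypes in the median. Of the 20 nearest measured genes on each side in RefSeq order, 12 were lower and 28 higher in mean in Hif1a-/- cells, with a median difference of 0.03. Many of these 40 are olfactory receptor genes, and most read below the median of all genes (8.55). RMA understates differences of such dim genes, so the flanks are limited in what they can show. Groups were apart downward in 1 of these 40 genes and upward in 12, beside 9.05% and 15.7% of all genes. The 1 gene apart downward was Kmo, an enzyme of tryptophan breakdown named after its value was seen, at -0.65. The nearest genes on the side of Aim2 were Cadm3, an adhesion molecule (0.01), Ackr1, a chemokine-binding receptor (0.14), and the olfactory receptor gene Olfr418 (0.03). Beyond Ifi205 lay the olfactory receptor genes Olfr433 (0.04), Olfr432 (0.27) and Olfr430 (-0.05). The difference between the cluster and its flanks was not tested, since the cluster was chosen for its values.

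**Figure D3:**
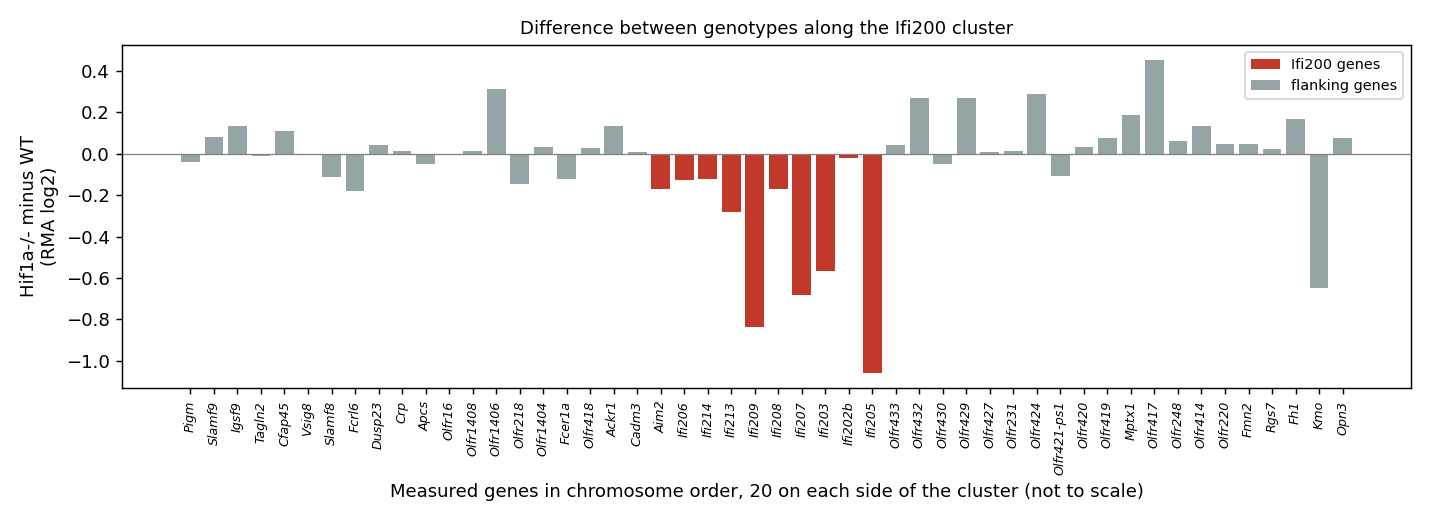
Difference between Hif1a-/- and WT means (RMA log2, vertical axis) for the 10 measured Ifi200 genes (red) and the 20 nearest measured genes on each side (grey), in chromosome order and not to scale. All red bars point down, with the longest at Ifi205 (-1.06) and Ifi209 (-0.84), while the grey bars have a median of 0.03. Most grey genes read below the median of all genes (8.55).

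The mean profile of the 5 members, each centred on its own mean over the 4 arrays, was -0.43 and -0.24 on the Hif1a-/- arrays and 0.12 and 0.55 on the WT arrays. The 10 genes outside the family with the smallest root mean square distance from this profile over the 4 arrays were Gcsam, Rhoq, Lrrc1, Stat4, Pfkl, Erg, P4ha1, Trf, Tpsg1 and Cysltr1, at distances of 0.064 to 0.10 log2 units. Gcsam, a signalling adaptor of germinal centre B cells, lay nearest and read 7.97 and 8.31 on the Hif1a-/- arrays and 8.57 and 8.94 on the WT arrays. Stat4, which carries interleukin-12 and type I interferon signals, read 9.83 and 10.24 on the Hif1a-/- arrays and 10.46 and 10.89 on the WT arrays. Of the members, Ifi207 lay at 0.13 from the mean profile and Ifi203 at 0.29, so these 10 genes were nearer to the family's mean than any member was. With 4 arrays, many genes can share such a profile.

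The pathway around the family was described through lists of genes chosen by function. Among 33 nucleic acid sensors and genes of the STING pathway, 0 passed limma at an adjusted p of 0.05 and 2 had an unadjusted p under 0.05, both lower. Of all genes, 0.978% were lower and 0.697% higher at that unadjusted p. The groups were apart downward in 4 of the 33 (12.1%, beside 9.05% of all genes) and upward in 0 (beside 15.7%). The median difference was -0.06, and it was -0.049 without WT replicate 1 and -0.093 without WT replicate 2. Tlr3, the endosomal receptor for double-stranded RNA, read 8.04 and 7.81 on the Hif1a-/- arrays and 8.57 and 8.62 on the WT arrays, a difference of -0.67 with an unadjusted limma p of 0.00211. Irf5, a transcription factor downstream of Toll-like receptors, differed by -0.51 with an unadjusted limma p of 0.0131, and Tlr7, a receptor for single-stranded RNA, by -0.52 with groups that overlapped. Sting1, the adaptor of DNA sensing, read 10.86 and 11.24 on the Hif1a-/- arrays and 11.01 and 11.54 on the WT arrays. Its groups overlapped, and its difference of -0.23 turned to 0.037 without WT replicate 2. Cgas, the enzyme that makes the STING ligand, differed by 0.12 and turned to -0.21 without WT replicate 1. Sting1, Cgas and Pycard below were named after their values were seen.

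Inflammasome and pyroptosis genes, only some of them partners of Aim2, were mostly lower in mean. Of 26 measured, 21 were lower and 5 higher in mean, beside 38.6% of all genes that were lower. In 5 the groups were apart downward (19.2%, beside 9.05% of all genes) and in 1 upward (beside 15.7%), and the median difference was -0.18. Limma called 0 at an adjusted p of 0.05, and 0 had an unadjusted p under 0.05, while it called 1 lower without WT replicate 1 and 7 lower and 1 higher without WT replicate 2. Naip5, a sensor of bacterial flagellin, read 9.34 and 9.13 on the Hif1a-/- arrays and 9.70 and 9.46 on the WT arrays. Casp4, the caspase of the non-canonical inflammasome, read 9.47 and 9.46 on the Hif1a-/- arrays and 9.74 and 9.70 on the WT arrays, and Naip2, a sensor of the rod protein of bacterial secretion systems, differed by -0.29 with groups that overlapped. Pycard, the adaptor shared by Aim2 and reported to depend on Ifi205 in mouse macrophages, read 9.92 and 9.80 on the Hif1a-/- arrays and 10.18 and 9.86 on the WT arrays. Its groups overlapped at a difference of -0.16.

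Of 24 interferon receptors and signalling genes, 20 were lower and 4 higher in mean, beside 38.6% of all genes that were lower. In 8 the groups were apart downward (33.3%, beside 9.05% of all genes) and in 2 upward (beside 15.7%), with a median difference of -0.16. Limma called 0 at an adjusted p of 0.05. At an unadjusted p under 0.05, 1 was lower and 1 higher, beside 0.978% and 0.697% of all genes. The list's median difference was -0.012 without WT replicate 1 and -0.26 without WT replicate 2. Irf8, which directs monocyte and dendritic cell fate, read 9.49 and 9.29 on the Hif1a-/- arrays and 9.90 and 10.07 on the WT arrays, with an unadjusted limma p of 0.00460. Ifnb1, the gene of interferon beta, went the other way at 7.20 and 7.31 on the Hif1a-/- arrays and 6.91 and 6.80 on the WT arrays, with an unadjusted limma p of 0.0177. Ptpn2, a phosphatase that limits JAK signalling, differed by -0.25.

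Other interferon-stimulated genes had a larger median difference between the WT arrays than between genotypes. Of 39 measured, 30 were lower and 9 higher in mean in Hif1a-/- cells, beside 38.6% of all genes that were lower. In 5 the groups were apart downward (12.8%, beside 9.05% of all genes) and in 1 upward (beside 15.7%). The median difference between genotypes was -0.12, and the median of WT replicate 2 minus WT replicate 1 was -0.44, opposite in sign to the 0.32 of the Ifi200 members. The list's median difference between genotypes turned to 0.061 without WT replicate 1 and was -0.40 without WT replicate 2. Dtx3l, a ubiquitin ligase, differed by -0.30, Ifi27 by -0.28 and Epsti1 by -0.22, each with groups that did not overlap, and limma called 0 of the 39 at an adjusted p of 0.05, with 0 at an unadjusted p under 0.05. Between the WT arrays, 7 of the 39 were higher on replicate 2 and 32 were lower there.

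Among 19 interferon-gamma GTPases and antigen processing genes, the median difference was -0.07 and turned to 0.11 without WT replicate 1. In 5 of them the groups were apart downward (26.3%, beside 9.05% of all genes) and in 1 upward (beside 15.7%), and limma called 0 at an adjusted p of 0.05, with 1 higher at an unadjusted p under 0.05. Of all genes, 0.697% were higher at that unadjusted p. Without WT replicate 2 the list's median difference was -0.28. The gene that was apart upward was Cxcl10, an interferon-induced chemokine, which read 10.94 and 9.96 on the Hif1a-/- arrays and 9.90 and 9.39 on the WT arrays. B2m, the light chain of MHC class I, differed by -0.19 and Gbp3, a guanylate-binding protein, by -0.22.

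**Figure D4:**
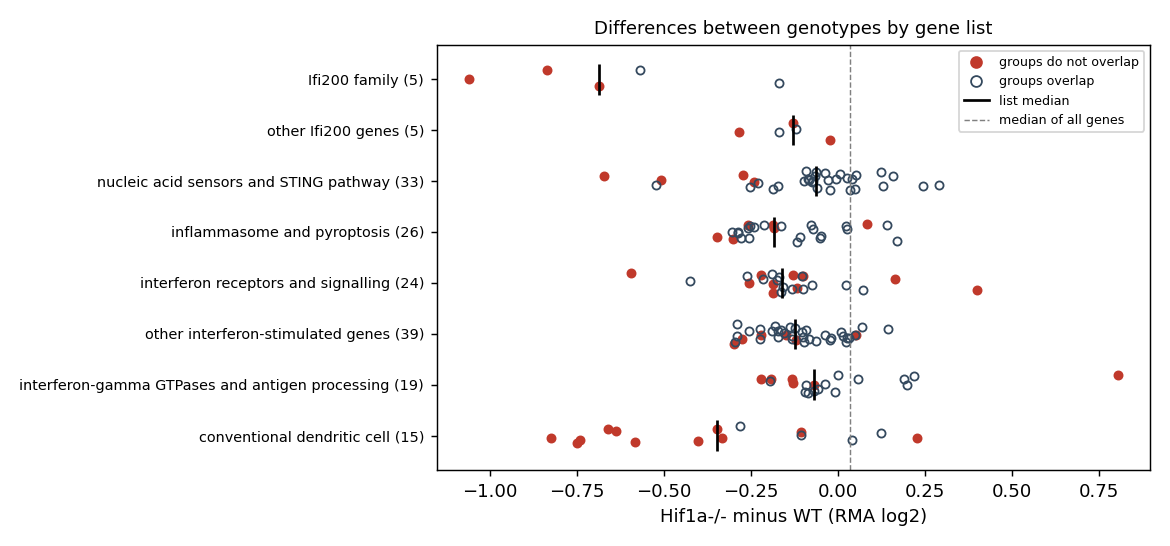
Difference between Hif1a-/- and WT means (RMA log2, horizontal axis) for every measured gene of 8 lists, with the number of genes in parentheses. Filled points are genes whose groups do not overlap, open points those that overlap, black bars are list medians and the dashed line is the median of all genes (0.03). The Ifi200 members, which were chosen on this contrast, reach -1.06. Other interferon-stimulated genes lie within -0.30 to 0.14.

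Genes of conventional dendritic cells were mostly lower in Hif1a-/- cells, as Ifi205 and Ifi209 were. Of 15 measured, 10 had groups apart downward and 1 upward, beside 9.05% and 15.7% of all genes, and 13 lay above the median of all genes in WT cells and 10 in Hif1a-/- cells. Relative to its mean over the 4 arrays, the list lay at -0.19 and -0.17 on the Hif1a-/- arrays and at 0.22 and 0.14 on the WT arrays, with a median difference of -0.35. Those apart downward included MHC class II genes and their regulator Ciita: H2-Ab1 (-0.74), H2-Aa (-0.66), H2-Eb1 (-0.64), Cd74 and Ciita (-0.33). Xcr1 and Clec9a, receptors of cross-presenting dendritic cells, differed by -0.82 and -0.75, while Batf3, Zbtb46 and Cd209a differed by 0.04, 0.23 and 0.12. The brightest genes of the list by mean were Cd24a, which differed by -0.11, and Cd74, the MHC class II invariant chain, which differed by -0.58. Limma called 0 of the 15 at an adjusted p of 0.05. At an unadjusted p under 0.05, 9 were lower and 0 higher, beside 0.978% and 0.697% of all genes. These 9 include the MHC class II genes and Ciita named above. Without WT replicate 1, Xcr1 differed by -0.89, Clec9a by -0.85 and Zbtb46 by 0.32. Without WT replicate 2, they differed by -0.76, -0.65 and 0.14. The part of these genes' cells in the values of the Ifi200 members was not tested, and in these bulk samples fewer cells of a type and less RNA per cell cannot be told apart.

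For the other marker lists, the Hif1a-/- and WT means overlapped. The neutrophil mean given above and the mean of 39 interferon-stimulated genes (10.15 and 10.09 on the Hif1a-/- arrays, 10.53 and 9.94 on the WT arrays) were both highest on WT replicate 1. Over 15 monocyte and macrophage genes the mean was 9.15 and 9.60 on the Hif1a-/- arrays and 9.67 and 9.41 on the WT arrays, with groups that overlapped. The mean of 10 plasmacytoid dendritic cell genes was 8.64 and 8.54 on the Hif1a-/- arrays and 8.60 and 8.58 on the WT arrays. The mean of 19 lymphoid genes was 8.22 and 8.13 on the Hif1a-/- arrays and 8.46 and 8.12 on the WT arrays. Between the WT arrays, 6 of 8 gate genes were higher on replicate 2 and 2, Thy1 and Procr, lower, while 4 of 15 neutrophil genes (Mpo, Prtn3, Elane and Ctsg) were higher there and 11 lower. Kit read 10.95 and 10.61 on the Hif1a-/- arrays and 10.32 and 11.07 on the WT arrays, and Cd34 read 10.70 and 11.70 on the Hif1a-/- arrays and 10.31 and 12.29 on the WT arrays. Like Cd34 and Flt3 (8.99 and 9.58 on the Hif1a-/- arrays, 9.02 and 10.48 on the WT arrays), Ifi203 was highest on WT replicate 2, and the part of that array's makeup in its value was not tested.

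**Figure D5:**
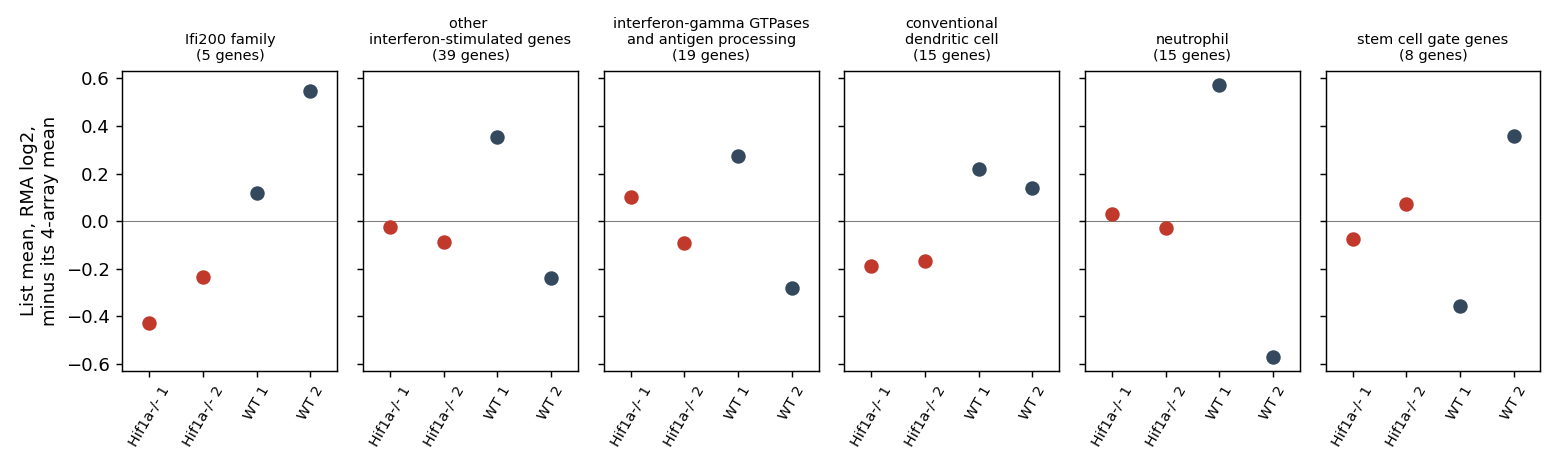
Mean RMA log2 level of 6 gene lists on each array, after subtracting the list's mean over the 4 arrays (vertical axis), with Hif1a-/- arrays in red left of WT arrays in grey. The Ifi200 members lie at -0.43 and -0.24 on the Hif1a-/- arrays and at 0.12 and 0.55 on the WT arrays. The neutrophil genes lie at 0.57 and -0.57 on the WT arrays.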

How the data were processed

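RNA of sorted leukemia stem cells was measured on 4 arrays. The deposited table holds log2 expression values made with Affymetrix Expression Console 1.1 and RMA, per the submitters' processing notes, for 35556 probe sets. RMA includes a background correction, quantile normalization and a summary per probe set, and it understates differences of dim genes. Further settings: not given in the sources used here.

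Of the probe sets, 21789 carried 1 gene symbol in the platform annotation, 1621 several and 12146 were unnamed here. Each gene was read from its single-symbol probe set with the highest mean, which left 19938 genes. Lookup by Entrez number in the RefSeq table of GRCm38.p6 changed 0 symbols. Groups came from the sample titles. Limma 3.58.1 in R 4.3.3 (lmFit and eBayes, genotype only, Benjamini-Hochberg over all genes) was tested on simulated data. With 2 arrays a group, the smallest two-sided p of an exact permutation test is 0.333. Precision is limited by the number of arrays, and a difference had a median standard error of 0.14.

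Genes named were the members, the other Ifi200 genes, Hif1a, the 3 smallest unadjusted p-values of each pathway list, the 10 nearest profiles, the 3 nearest neighbours on each side and the 2 brightest markers of each cell type, of which only those that bear on a member are printed. Other names were chosen after their values were seen. The members and lists were chosen with earlier results of these data known. Alternatives covered filters, normalization, probe set averaging, the variance model, the threshold, a replicate block and leaving out each array.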

Additional observations from a re-analysis of the deposited data

How the results depend on the processing

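Ifi205, Ifi209, Ifi207 and Aim2 kept a negative difference under every alternative run on them, and Ifi203 did so except when 1 array was left out, with a range from -1.19 to 0.049, the positive value being without WT replicate 2. Centring the array medians moved Ifi205 to -1.08. The median over the members ran from -0.94 to -0.43 with 1 array left out, and from -0.71 to -0.63 under the other settings. The -0.63 came from the filter at the 50th percentile of mean expression, which dropped Ifi209 for its low level. Among other Ifi200 genes, Ifi208 ran from -0.38 to 0.044 and Ifi214 from -0.26 to 0.015 when 1 array was left out.

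The number of genes called by limma at an adjusted p of 0.05 was 0, and 1 with an intensity trend, 2 with a trend and robust fitting, and 2 to 1442 with 1 array left out, where the 1442 were reached without WT replicate 2 and 349 without WT replicate 1. In those fits the lone WT sample is assumed to vary like the Hif1a-/- samples. With the replicate number as a block 47 genes were called, 33 lower and 14 higher. Among the lists outside the family, these were Cxcl10, higher, and Xcr1, Ccr2 of the monocyte list and Gzmb of the lymphoid list, all lower. Replicate deviations correlated at -0.0072 between genotypes over 19938 genes, so no shift shared by replicate number was seen. The labels do not say whether samples of the same number were handled together, and this correlation cannot settle it. The block left every difference as it was.

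With 1 array left out, the median difference ran from -0.11 to -0.012 for nucleic acid sensors, from -0.27 to -0.048 for inflammasome genes, from -0.26 to -0.012 for interferon signalling, from -0.40 to 0.061 for other interferon-stimulated genes and from -0.28 to 0.11 for interferon-gamma GTPases and antigen processing. What lies behind these changes was not tested. Dim genes are limited by their signal over background, which RMA values do not show.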
